A study of Mus musculus with 2 samples.

Results

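The cells described here are insulin-producing islet cells that also carried transcripts of the pancreatic polypeptide (PP) family, from mice aged 2 weeks. They were chosen by their own counts of unique molecular identifiers (UMIs), each of which stands for a single captured mRNA molecule. In such a cell Ins1 and Ins2 together outnumbered Gcg, Sst, and the sum of Ppy and Pyy, and took at least 20% of all UMIs. Ppy and Pyy together took at least 1%, and Fos and Hspa1a together stayed below 1000 UMIs per 1000000. Of 8897 cells that passed the filters on genes, UMIs, mitochondrial and haemoglobin transcripts, 1243 met these conditions, 446 of 4628 in WT and 797 of 4269 in Npc1-/-. They are called PP-rich β cells here. The insulin-led cells under the same Fos+Hspa1a limit with less than 1% Ppy+Pyy, 1209 in WT and 1001 in Npc1-/-, are called low-PP β cells and served as the comparison. Ins1, Ins2, Gcg, Sst, Ppy, Pyy, Fos and Hspa1a chose the cells and are only described.

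The study profiled primary islets, dispersed with trypsin, by droplet-based 3′ single-cell RNA sequencing (10x Genomics). There was 1 library of WT mice and 1 of Npc1-/- littermates on the C57BL/6J background, each from a pool of 3 female mice. The knockout was present in every tissue and not only in β cells, and Npc1 encodes the protein that carries cholesterol out of the lysosome. The WT library held 114324626 UMIs in 8569 barcodes and the Npc1-/- library 127122035 UMIs in 7646 barcodes. With 1 library per genotype there is no test and no replicate check of any difference. All intervals are 95% intervals for counting error alone, and genotype, library and pool of mice cannot be told apart.

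Pancreatic polypeptide (Ppy) and peptide YY (Pyy) are short secreted hormones of the same fold as neuropeptide Y, and they act on a common family of Y receptors. In the adult islet Ppy is mainly a product of PP cells, while Pyy is found in several endocrine cell types and is widespread in the developing pancreas. β cells leave the embryonic pancreas immature. After birth they gain Mafa, a transcription factor of the insulin gene, and Ucn3, a peptide that they release with insulin.

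Ppy (11:102099931-102101319, minus strand) and Pyy (11:102106676-102107832, minus strand) are neighbouring RefSeq genes, 5357 bases apart in GRCm38 (mm10), the build of the files. Their promoters are shown with those of Tspan8 and Ucn3, which stood at the opposite ends of the comparison of PP-rich with low-PP β cells. Each stretch runs from 250 bases before to 50 bases after the transcription start in RefSeq (GRCm38.p6), 5′ to 3′ on the strand of the gene. Capitals mark TAAT, the core recognised by homeodomain factors such as PDX1 and NKX6-1, and TGCTGA, the core recognised by MAF factors, on either strand. 
Ppy promoter (chr11:102101270-102101569): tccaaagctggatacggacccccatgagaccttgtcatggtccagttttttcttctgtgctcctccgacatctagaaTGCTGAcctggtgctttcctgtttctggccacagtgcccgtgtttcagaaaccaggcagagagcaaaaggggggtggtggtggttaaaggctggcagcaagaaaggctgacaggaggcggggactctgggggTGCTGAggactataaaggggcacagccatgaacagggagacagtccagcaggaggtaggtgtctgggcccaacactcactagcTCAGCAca
Pyy promoter (chr11:102107783-102108082, the first of 2 entries): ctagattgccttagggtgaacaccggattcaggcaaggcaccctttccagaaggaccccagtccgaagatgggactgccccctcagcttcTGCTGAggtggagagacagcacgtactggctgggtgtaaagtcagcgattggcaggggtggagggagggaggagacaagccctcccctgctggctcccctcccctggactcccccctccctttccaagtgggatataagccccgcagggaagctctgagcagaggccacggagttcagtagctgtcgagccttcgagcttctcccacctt
Tspan8 promoter (chr10:115817034-115817333): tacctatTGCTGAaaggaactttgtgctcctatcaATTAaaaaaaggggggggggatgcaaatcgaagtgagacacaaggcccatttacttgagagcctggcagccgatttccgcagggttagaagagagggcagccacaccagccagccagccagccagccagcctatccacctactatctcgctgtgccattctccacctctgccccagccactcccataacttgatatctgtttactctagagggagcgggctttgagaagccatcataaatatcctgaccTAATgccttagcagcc
Ucn3 promoter (chr13:3945300-3945599): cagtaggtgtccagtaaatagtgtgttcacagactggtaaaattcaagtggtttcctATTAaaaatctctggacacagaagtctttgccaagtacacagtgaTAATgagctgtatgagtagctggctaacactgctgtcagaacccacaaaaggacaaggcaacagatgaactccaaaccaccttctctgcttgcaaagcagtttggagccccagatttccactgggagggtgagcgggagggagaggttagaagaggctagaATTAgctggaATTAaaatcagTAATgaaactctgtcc
The Ppy stretch held 3 TGCTGA matches and 0 of TAAT, the Pyy stretch 1 and 0, the Tspan8 stretch 1 and 2, and the Ucn3 stretch 0 and 5. Of 32851 promoters of the same length, 58% held TAAT and 19.5% held TGCTGA. A match is a run of letters and not a measured binding site.

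The Npc1 transcript, which checks the labels, was low in both libraries and lower in the library labelled Npc1-/-. It stood at 5.88 CPM (counts per 1000000 UMIs, from the sum over all cells of a kind) in WT and 2.88 CPM in Npc1-/- PP-rich β cells, against 5.78 and 2.33 CPM in low-PP β cells. The log2 ratio of Npc1-/- over WT was -1.09 (-1.60 to -0.59) in PP-rich β cells. Xist was at 456 and 455 CPM, as is usual for female cells.

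PP-rich β cells had insulin as the main product and a depth close to that of the other β cells. Their median was 27987 UMIs and 4061.5 genes in WT and 27974 UMIs and 4276 genes in Npc1-/-, somewhat below the 31748 and 32019 UMIs of low-PP β cells. Mitochondrial transcripts had a median of 4.17% and 4.39%. Ins2 took 30.1% of their UMIs in WT and 29.4% in Npc1-/-, and Ins1 16.2% and 15.4%. Iapp, the amyloid peptide that β cells secrete with insulin, took 4.20% and 4.39%. No barcode sequence was shared between the libraries among them, of 3 shared by kept cells.

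The PP family formed a minor share of the hormone load. Over all PP-rich β cells Pyy took 2.23% of the UMIs in WT and 2.47% in Npc1-/-, and Ppy 0.831% and 0.975%. The median cell had 2.06% Ppy+Pyy in WT and 2.33% in Npc1-/-, and the highest 25.9% and 26.0%. Endothelial cells of the same libraries, which do not make these hormones and show the level of free RNA, had medians of 0.0727% and 0.0818%. The median Gcg share was 0.0507% in WT and 0.0468% in Npc1-/-, and the median Sst share 0.00569% and 0.00621%, so that the α and δ cell hormones were low in the typical cell.

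There was no gap at the limit of 1%. Among the 1655 WT insulin-led cells under the Fos+Hspa1a limit, 109 had between 0.75 and 1% Ppy+Pyy and 80 lay in the step of the same width just above 1%. Among the 1798 Npc1-/- cells the numbers were 118 and 111. Many PP-rich β cells lay near the limit, with 214 of the 446 WT and 335 of the 797 Npc1-/- cells between 1 and 2%, and 21 and 66 cells at 8% or more. Whether the cells form a cluster of their own was not tested.

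**Figure D1:**
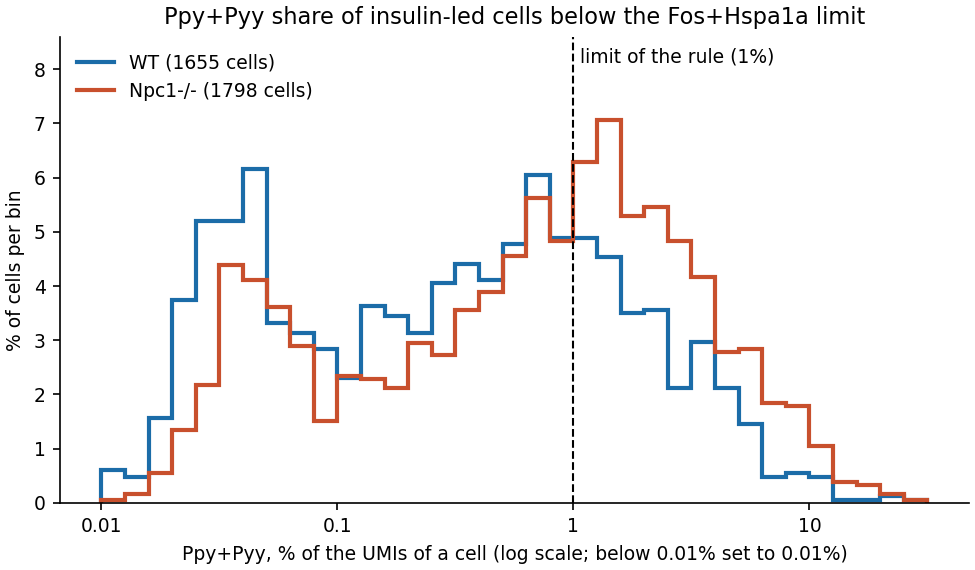
Distribution of the Ppy+Pyy share (x axis, % of the UMIs of a cell, log scale) over insulin-led cells below the Fos+Hspa1a limit (y axis, % of the cells of a library per bin), in WT (blue, 1655 cells) and Npc1-/- (orange, 1798 cells). A low group lies under 0.1% and a broad upper group runs through the 1% limit (dashed line) without a gap, and the Npc1-/- curve is the higher of the pair to the right of the limit, apart from the last bin with 1 cell of each library.

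Pyy, and not Ppy, was the usual PP-family transcript of these cells. Pyy outnumbered Ppy in 396 of 446 WT cells (88.8%) and in 660 of 797 Npc1-/- cells (82.8%), and by more than 10 times in 52.9% and 48.6%. Ppy stayed below 0.1% of UMIs in 216 WT and 341 Npc1-/- cells. Both hormones reached 0.5% in 144 WT cells (32.3%) and 307 Npc1-/- cells (38.5%). A small group carried Ppy with next to no Pyy, as Ppy exceeded Pyy by more than 10 times in 2 WT and 22 Npc1-/- cells. Among the cells, Ppy and Pyy followed each other only weakly, with a Spearman rho of 0.247 over 446 WT cells and 0.135 over 797 Npc1-/- cells, and both numbers share the limit on the sum. The summed ratio of Pyy to Ppy UMIs was 2.69 in WT and 2.54 in Npc1-/-, against 3.94 and 3.66 in low-PP β cells and 0.995 and 1.02 in the cells whose leading hormone was Ppy+Pyy. Of these cells 152 of 425 in WT (35.8%) and 175 of 465 in Npc1-/- (37.6%) had Sst at 1% or more.

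**Figure D2:**
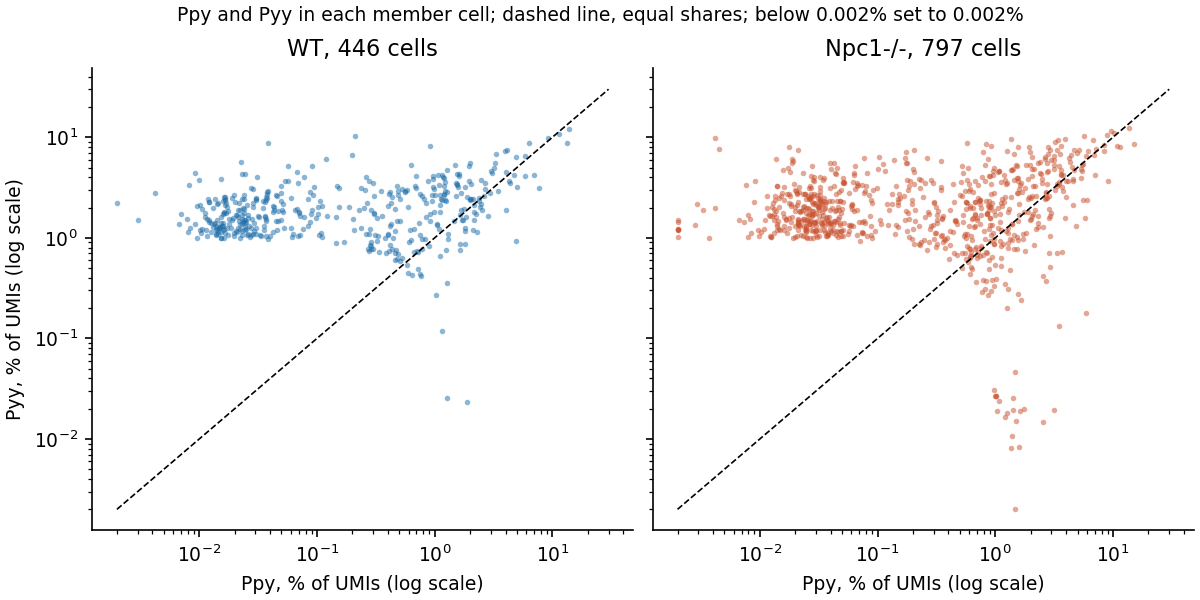
Ppy (x axis) and Pyy (y axis) as % of the UMIs of each PP-rich β cell, on log scales, in WT (left, 446 cells) and Npc1-/- (right, 797 cells), with equal shares on the dashed line. Most cells lie above the line, in one group with Ppy under 0.1% and another in which both hormones are present, and a few cells with Ppy but little Pyy lie at the lower right, 22 of them in Npc1-/- and 2 in WT.

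Other members of the family were near absent. Npy, which encodes neuropeptide Y, stood at 0.557 and 0.0450 CPM in WT and Npc1-/- PP-rich β cells, or 7 UMIs and 1 UMI, against 5.89 and 0.894 CPM in low-PP β cells. Of the Y receptor genes, Npy1r had 3 UMIs in WT and 10 UMIs in Npc1-/- over all PP-rich β cells, and Npy2r, Npy4r and Npy5r had 0, so none reached the 20 CPM needed for a comparison.

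PP-rich β cells differed from low-PP β cells in a limited set of genes, in the same direction in both genotypes. Log2 ratios of CPM were taken relative to the median gene of the comparison, which lay at 0.154 in WT and 0.164 in Npc1-/-, for genes that reached 20 CPM in either class. In WT alone 31 (0.756%) of 4102 genes were at least 2-fold higher and 34 (0.829%) lower, and in Npc1-/- alone 20 (0.464%) and 19 (0.441%) of 4312. Of 3980 genes compared in both libraries, 19 (0.477%) were at least 2-fold higher and 16 (0.402%) at least 2-fold lower in PP-rich β cells in WT and in Npc1-/- alike. Among the 19 were Tspan8, Cd81, Rbp4, Cd79a, Calb1, Ramp1, Folr1, Txnip, Ffar4, Uchl1, Fxyd3 and Dbpht2. Among the 16 were Ucn3, Mafa, Trpm5, Sytl4, Prss53, P2ry1, Gad1 and Ube2c. Under a stricter cell filter, set at 2000 genes and 5% mitochondrial transcripts, 15 of the 19 higher genes kept both 20 CPM and a 2-fold difference. Cd79a, Cd81, Dbpht2 and Uchl1 did not. Of the 16 lower genes 13 kept both, and Car10, Gad1 and Tmigd3 did not.

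The surface proteins Tspan8 and Cd81 were both higher. Tspan8 (ENSMUSG00000034127, 10:115816832-115849893) encodes a tetraspanin of the cell membrane. PP-rich β cells held 138 CPM (131 to 144) in WT and 123 CPM (118 to 127) in Npc1-/-, against 23.8 and 27.1 CPM in low-PP β cells. The log2 ratio was 2.38 (2.26 to 2.50) in WT and 2.02 (1.90 to 2.13) in Npc1-/-. After each cell was thinned to 5000 UMIs, a Tspan8 UMI was left in 38.7% (WT) and 37.5% (Npc1-/-) of PP-rich β cells, in 10.3% and 9.55% of low-PP β cells, and in 4.30% and 4.99% of endothelial cells. Without thinning the shares were 72.4% and 73.3%, 33.5% and 35.5%, and 7.24% and 10.2%, at median depths of 7836 and 10289 UMIs in endothelial cells. Cd81 (ENSMUSG00000037706, 7:143052739-143067934), another tetraspanin and a marker of neonatal β cells, stood at 215 and 255 CPM against 65.4 and 101 CPM, with log2 ratios of 1.56 (1.49 to 1.64) and 1.17 (1.11 to 1.23). Tspan8 thus separated the classes more widely than Cd81 in each library, and the counting intervals of the classes did not overlap for either gene. After the same thinning, a Cd81 UMI was left in 57.8% (WT) and 65.5% (Npc1-/-) of PP-rich β cells and in 22.2% and 34.4% of low-PP β cells. The shares were higher in endothelial cells, at 100% and 99.8%, and in cells led by Ppy+Pyy, at 81.6% and 82.7%. Cd81 was therefore not particular to PP-rich β cells.

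The other genes with the highest ratios were of mixed function. Rbp4, the carrier of retinol, stood at 1046 and 905 CPM in WT and Npc1-/- against 197 and 233 CPM, with log2 ratios of 2.25 and 1.80. Calb1, the calcium buffer calbindin, stood at 35.5 and 38.4 CPM against 6.76 and 8.66 CPM, with log2 ratios of 2.24 and 1.99. Ramp1, which pairs with the calcitonin receptor-like receptor, had log2 ratios of 1.88 and 1.70. Folr1, a folate receptor, had 1.41 and 1.56. Gpx3, a secreted glutathione peroxidase, had 2.04 and 1.29. Smim6, a small membrane protein, had 1.73 and 1.27, and Klhdc8b, a kelch repeat protein, 1.85 and 1.52. Cd79a, best known as a part of the B cell receptor, stood at 104 and 101 CPM against 33.9 and 42.3 CPM. The B cell genes Cd79b and Ms4a1 were at 0 UMIs in the PP-rich β cells of both libraries. The immunoglobulin gene Igkc had 46 and 55 UMIs, and Ighm 4 in WT and 0 in Npc1-/-.

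Part of this list moved with Sst. Markers of δ cells were high in the 46 WT (10.3%) and 51 Npc1-/- (6.40%) PP-rich β cells in which Sst reached 1% of UMIs. These cells had a median of 40990 and 37761 UMIs, against 26606 and 27787 in the cells with Sst and Gcg under 1%. In them Hhex, the transcription factor of δ cells, stood at 216 and 163 per 1000000 non-hormone UMIs, against 1.02 and 1.39 in the PP-rich β cells without Sst or Gcg. Of the 46 WT cells 45 (97.8%) and of the 51 Npc1-/- cells 38 (74.5%) had doublet scores among the highest of their library up to the expected doublet rate, against 5.50% and 4.14% of the cells without Sst or Gcg. Without the cells with 1% Gcg or Sst, the log2 ratios of Cd24a, a glycoprotein of the cell surface, went from 2.46 to 0.45 in WT and from 1.24 to 0.30 in Npc1-/-, and those of Clu, a secreted chaperone, from 1.94 to 0.93 and from 1.84 to 1.34. Fam159b, a membrane protein, went from 2.01 to 1.19 and from 1.44 to 1.12. Tspan8 kept 2.20 and 1.83, Calb1 2.32 and 2.00, Ramp1 2.03 and 1.72, Cd81 1.65 and 1.19, and Rbp4 1.93 and 1.66. Of the 19 genes, 14 kept both 20 CPM and a 2-fold difference without these cells. Cd24a, Clu and Gpx3 were among those under 2-fold in at least 1 library. Klhdc8b was past 2-fold in both libraries but did not reach 20 CPM in both.

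Cells with Gcg at 1% or more were fewer, 19 in WT and 22 in Npc1-/-, and 18 and 20 of them were among the highest doublet scores. In this group Ghrl, the ghrelin gene, stood at 284 and 137 per 1000000 non-hormone UMIs against 10.9 and 12.2 in the cells without Sst or Gcg.

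**Figure D3:**
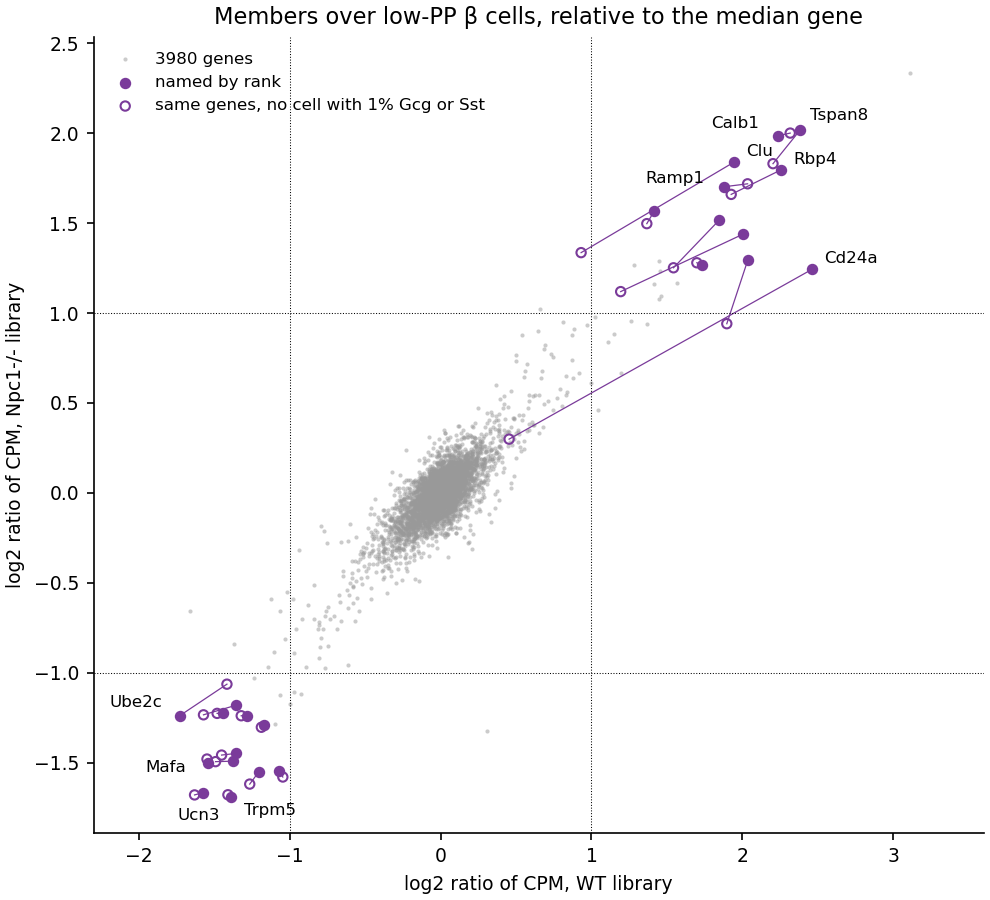
Log2 ratio of PP-rich over low-PP β cells in the WT library (x axis) and in the Npc1-/- library (y axis), relative to the median gene, for the 3980 genes that reached 20 CPM in either class (grey) and for the genes named by rank (purple). Open circles give the named genes without cells of 1% Gcg or Sst: Cd24a and Clu move towards 0, while Tspan8, Calb1 and Ucn3 stay near their place, and dotted lines mark 2-fold.

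Genes of mature β cells were lower. Ucn3 (ENSMUSG00000044988, 13:3940688-3945349) stood at 91.4 and 69.8 CPM in WT and Npc1-/- PP-rich β cells, against 245 and 198 CPM in low-PP β cells, with log2 ratios of -1.58 (-1.67 to -1.49) and -1.67 (-1.75 to -1.59). Mafa (ENSMUSG00000047591, 15:75745490-75748228) stood at 89.6 and 98.7 CPM against 234 and 250 CPM, with log2 ratios of -1.54 (-1.63 to -1.45) and -1.50 (-1.57 to -1.44). Both genes were still well above the level in the other endocrine classes. In cells led by Ppy+Pyy, Ucn3 was at 5.73 and 7.89 CPM and Mafa at 5.50 and 5.84 CPM. By thinned counts 31.7% (WT) and 25.9% (Npc1-/-) of PP-rich β cells had a Ucn3 UMI, against 65.4% and 54.9% of low-PP β cells and 4.56% and 1.19% of endothelial cells, and unthinned in 68.8% and 59.1% against 95.7% and 90.5% and against 7.47% and 2.43%. The lower level was therefore shared by many cells, and most PP-rich β cells still had a Ucn3 molecule.

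Trpm5, a calcium-activated cation channel, stood at 57.4 and 33.2 CPM in WT and Npc1-/- against 135 and 95.5 CPM. Sytl4, the granule docking protein granuphilin, stood at 55.3 and 50.5 CPM against 121 and 106 CPM. P2ry1, a receptor for ADP, had log2 ratios of -1.38 and -1.49. Gad1, the enzyme that makes GABA, had -1.07 and -1.55, and the protease gene Prss53 -1.17 and -1.29. Tmigd3, Vps8, Zc3h3 and Ttc28, which are not known as β cell markers, were also among the 12 lowest, with log2 ratios between -1.20 and -1.44 in WT and between -1.18 and -1.55 in Npc1-/-. Removing the cells with 1% Gcg or Sst left 15 of the 16 lower genes with both 20 CPM and a 2-fold difference. In the cells of 1 to 2% Ppy+Pyy alone, 214 of the 446 in WT and 335 of the 797 in Npc1-/-, fewer genes met both limits. They were 6 of the 19 higher and 5 of the 16 lower genes. Cd81, Calb1, Folr1, Txnip and Uchl1 were among the higher genes that did not, and Trpm5, Sytl4, Prss53 and Ube2c among the lower ones.

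The list of mature β cell function had 19 genes, of which 16 could be compared in both libraries. An interval away from the median gene on the same side in both libraries was found for 12% of all 3980 genes above it and for 13.9% below it. In single libraries these shares were 17.6% and 20.1% in WT and 19.2% and 21.2% in Npc1-/-. On this list 13 genes were below and 1 was above, with medians of -0.61 over the 17 genes compared in WT and -0.48 over the 16 in Npc1-/-, and 5 were at least 2-fold lower. Besides the genes above, Ero1lb, which oxidises proinsulin in the ER, had log2 ratios of -0.80 and -0.86, G6pc2, the glucose-6-phosphatase of the islet, -0.66 and -0.71, and Slc2a2, the glucose transporter GLUT2, -0.61 and -0.64. The factors Nkx6-1 (-0.27 and -0.32) and Pdx1 (-0.19 and -0.15) were lower by little. Slc30a8, the zinc transporter of insulin granules and the most abundant gene of the list, stood at 535 and 524 CPM against 514 and 497 CPM, a log2 ratio of -0.09 in both. Cox6a2, a subunit of respiratory complex IV, was below 20 CPM in the Npc1-/- cells and stood at 4.93 and 0.405 CPM in WT and Npc1-/- against 28.3 and 7.63 CPM.

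The list of neonatal or immature β cell genes behaved in the opposite way. It had 14 genes, 10 of which could be compared in both libraries: 7 were above the median gene and 2 below, 6 were at least 2-fold higher, and the medians were 1.37 and 1.13. The 2 genes on the lower side were Nnat, an imprinted gene, with log2 ratios of -0.96 and -0.76, and Ccnd2, a cyclin of β cell growth, with -0.28 and -0.25. Ucn3 and Mafa were thus lower and Cd81 and Tspan8 higher. Cd81 and Tspan8 are markers by which these cells were named, so their levels are no separate support for the label of immature cells. Not every gene of the immature list was higher. Rbp4 and Cd24a of that list are also high in δ cells, and Cd81 was found in a larger share of endothelial cells than of PP-rich β cells. The lists of immature and mature genes were drawn up with earlier results of these libraries known.

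Among 14 lineage transcription factors that could be compared, 5 were above and 4 below the median gene, and the medians were 0.01 over the 15 compared in WT and -0.02 over the 14 in Npc1-/-. Isl1, a factor of all islet hormone cells, was among those above, at 195 and 163 CPM against 129 and 114 CPM. Neurog3, the factor of endocrine progenitors, was low in all β cells, at 8.11 and 7.20 CPM in WT and Npc1-/- PP-rich β cells against 0.663 and 1.66 CPM in low-PP β cells, and at 83.6 and 85.7 CPM in the cells led by Sst. Only 2 of the 12 genes on the progenitor list reached 20 CPM in both comparisons.

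Housekeeping and organelle genes moved by small amounts. Of 81 ribosomal protein genes, 63 were above the median gene in both libraries and none below, with medians of 0.13 and 0.12. Of 12 mitochondrially encoded genes 11 were below and none above, with medians of -0.27 and -0.28, while among 75 nuclear genes of oxidative phosphorylation 3 were above and 6 below. Of 37 lysosomal genes 15 were below and 1 was above, where Cd63, the most abundant, had log2 ratios of -0.40 and -0.25 and Ctsz, a cathepsin, 0.69 and 0.82. Of 13 genes of cholesterol synthesis and uptake 6 were below and none above. Of 30 genes of ER folding 9 were below and 2 above. For granins and prohormone processing the counts were 2 below and 5 above of 13, with Chga, the most abundant after Iapp, at 0.25 and 0.20, and Pam, which amidates peptides, at 0.36 and 0.25. Exocytosis genes gave 5 below and 2 above of 15, glycolysis 2 below and 4 above of 11, ion channels 1 below and 2 above of 8, imprinted growth genes 2 below and 3 above of 5, and mitophagy 1 below and none above of 16.

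Cell cycle genes were lower in PP-rich β cells. Of 7 that could be compared 5 were below and 1 above the median gene, and 2 were at least 2-fold lower. Ube2c, the ubiquitin-conjugating enzyme of mitosis, stood at 15.2 and 15.1 CPM in WT and Npc1-/- against 45.3 and 31.8 CPM, with log2 ratios of -1.73 and -1.24. When the cells with a UMI of Mki67, Top2a or Ube2c were left out of both classes, 19 of the 19 higher and 14 of the 16 lower genes kept both 20 CPM and a 2-fold difference. Ube2c, which chose the cells left out, and Cenpf, a mitotic protein, did not.

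Immediate early and heat shock transcripts, which dissociation is known to induce, were somewhat higher. Of 9 immediate early and heat shock genes outside the rule, 5 were above and none below the median gene in both libraries. The medians were 0.29 over the 13 genes compared in WT and 0.16 over the 9 in Npc1-/-. All 17 genes of the list summed to 2440 and 1678 CPM in WT and Npc1-/- PP-rich β cells against 1987 and 1344 CPM in low-PP β cells. The part of this response in the other differences was not tested. With Fos+Hspa1a held under 100 per 1000000, 18 of the 19 higher and 12 of the 16 lower genes kept both 20 CPM and a 2-fold difference. The higher gene that did not was Klhdc8b, which did not reach 20 CPM in both libraries and had log2 ratios of 2.08 and 1.53.

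Markers of other cell types were summed over each list. The 6 endothelial markers summed to 3.26 and 32.6 CPM in WT and Npc1-/- PP-rich β cells and to 34.0 and 35.5 CPM in low-PP β cells, with Plvap the most abundant. The 12 acinar markers summed to 42.6 and 53.6 CPM against 171 and 34.7 CPM, led by Cela1 in PP-rich and Ctrb1 in low-PP β cells. The 6 stellate and fibroblast markers summed to 25.7 and 16.3 CPM against 25.3 and 32.6 CPM, led by Rgs5 in the PP-rich cells. The 11 blood and immune markers summed to 35.4 and 43.1 CPM against 35.9 and 46.2 CPM, of which C1qa made up most. The 7 δ cell markers other than Sst summed to 1220 and 1017 CPM against 226 and 265 CPM, and Rbp4 gave 1046 and 905 CPM of these. The 10 α cell markers other than Gcg summed to 2742 and 2510 CPM against 2135 and 2256 CPM, with Pcsk2 the most abundant. The 11 markers of PP or ε cells other than the hormones of the rule summed to 287 and 241 CPM against 161 and 153 CPM. Isl1, which all islet endocrine cells express, was the most abundant of them, Aqp3 was at 0 UMIs in WT and Sertm1 at 0 in Npc1-/-. Of this list 2 genes could be compared in both libraries, and both were above the median gene. The part of these other cell types in the differences was not tested.

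Within the PP-rich β cells, the same genes were graded by the Ppy+Pyy share. Levels (UMIs per 1000000 non-hormone UMIs) were taken in the cells with 1 to 2, 2 to 4, 4 to 8 and 8% or more. Tspan8 stood at 148, 308, 476 and 606 in WT and at 129, 221, 353 and 573 in Npc1-/-. Cd81 stood at 355, 469, 557 and 551 in WT and at 410, 538, 581 and 597 in Npc1-/-. Tspan8 was higher in each step up, and the intervals of Cd81 overlapped between the last 2 steps in both libraries. The steps held cells with Sst at 1% or more, in which Tspan8 stood at 481 and 565, against 247 and 211 in the PP-rich β cells without Sst or Gcg. With the cells of 1% Gcg or Sst left out, Tspan8 stood at 150, 283, 474 and 633 in WT and at 132, 213, 291 and 539 in Npc1-/-. Cd81 then stood at 361, 511, 672 and 613 in WT and at 406, 538, 635 and 641 in Npc1-/-.

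Mature genes went the other way. Ucn3 stood at 239, 152, 112 and 155 in WT and at 192, 120, 78.4 and 66.2 in Npc1-/-. Mafa stood at 227, 161, 114 and 131 in WT and at 249, 191, 120 and 96.5 in Npc1-/-. Slc2a2 stood at 521, 413, 241 and 256 in WT and at 419, 377, 267 and 143 in Npc1-/-. The top bin of WT held only 21 cells, and there the values of all 3 genes were above those of the bin before it, most of all for Ucn3 (155 against 112).

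Cd79a did not follow the course of Tspan8. Cd79a stood at 245, 226, 123 and 107 in WT and at 191, 220, 233 and 87.9 in Npc1-/-, so that it was lowest in the top bin of each library. Ghrl stood at 17.2, 7.69, 29.7 and 222 in WT and at 8.53, 5.39, 14.0 and 84.2 in Npc1-/-, highest in the top bin. The steps included the cells with Gcg at 1% or more, in which Ghrl stood at 284 in WT and 137 in Npc1-/-. In the PP-rich β cells with Sst and Gcg under 1% it stood at 10.9 and 12.2. The part of the cells with Gcg in the top bin was not tested. The insulin share of the median cell went from 51.8% at 1 to 2% to 34.3% at 8% or more in WT and from 50.2% to 29.8% in Npc1-/-, which follows in part from the rule, as the hormones share a total.

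Cells on either side of the limit differed by less than the ends of the range. Just under the limit, from 0.75 to 1%, Tspan8 stood at 102 in WT and 99.1 in Npc1-/-, and just over it, in a step of the same width, at 145 and 111. Mafa stood at 309 and 300 under the limit and at 233 and 247 over it, and Ucn3 at 299 and 232 under it and at 282 and 221 over it.

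**Figure D4:**
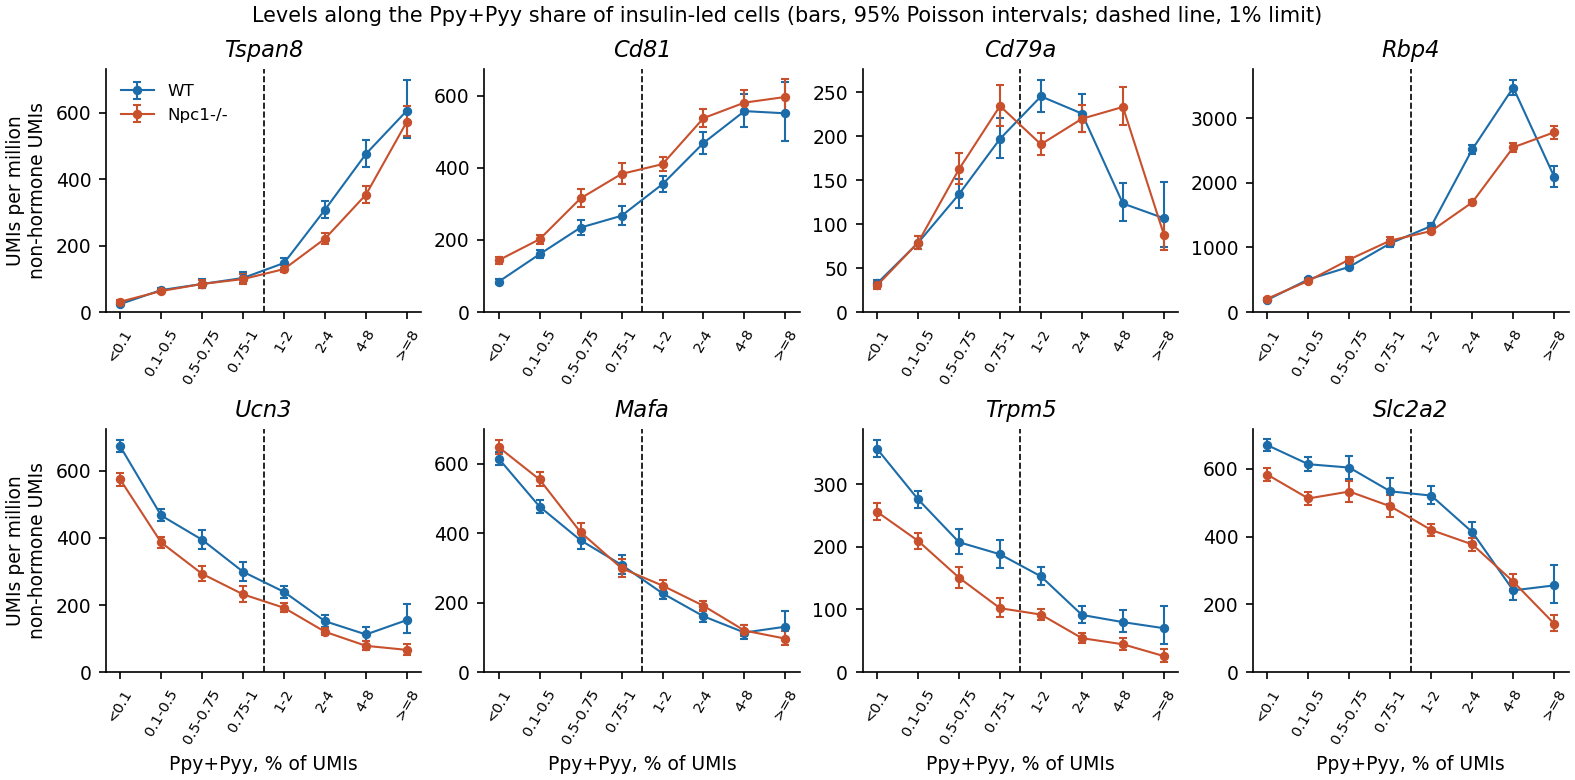
Levels of 8 genes (y axes, UMIs per 1000000 non-hormone UMIs, from 0) over insulin-led cells binned by their Ppy+Pyy share (x axes, % of UMIs), in WT (blue) and Npc1-/- (orange), with 95% Poisson intervals and the 1% limit dashed. Tspan8 and Cd81 are highest in the upper bins and Ucn3, Mafa, Trpm5 and Slc2a2 in the lowest ones, while Rbp4 is highest at 4 to 8% in WT (3478) and at 8% or more in Npc1-/- (2785), and Cd79a peaks in the middle of the range and is down to 107 (WT) and 87.9 (Npc1-/-) in the top bin. The bins include PP-rich β cells with Sst at 1% or more, in which Rbp4 stood at 5040 in WT and 4403 in Npc1-/-. In those with Sst and Gcg under 1% Rbp4 stood at 1634 and 1552, and the part of the cells with Sst in its peaks was not tested.

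Cell by cell, the genes whose level followed the Ppy+Pyy share most closely, by the lower of the rho values of both libraries among 3906 genes, were Tspan8 (Spearman rho 0.487 over 446 WT cells and 0.440 over 797 Npc1-/- cells), Folr1 (0.397 and 0.348), Clu (0.332 and 0.346) and Calb1 (0.347 and 0.328). Bsg, Cd81 and Cst3 came next. On the falling side stood Ero1lb (-0.351 and -0.359), Slc30a8 (-0.331 and -0.367), Ucn3 (-0.310 and -0.305), G6pc2 (-0.293 and -0.345) and Slc2a2 (-0.389 and -0.287), followed by Prss53, Tmem215, Mafa, Sytl4, Fkbp1b, Trpm5 and Papss2. These cells included those with Sst at 1% or more, whose median Ppy+Pyy share was 4.38% and 6.43% against 1.90% and 2.20% in the cells with Sst and Gcg under 1%. Over the 382 and 725 cells with Sst and Gcg under 1%, rho was 0.169 and 0.255 for Clu, 0.417 and 0.382 for Tspan8, 0.386 and 0.311 for Folr1 and -0.403 and -0.338 for Ucn3. All cells of a library share that library, and these values describe the cells without a test.

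The hormone pattern also ordered the cells. Among PP-rich β cells with Sst and Gcg under 1%, the cells with Ppy under 0.1% (203 in WT, 330 in Npc1-/-) were set beside those in which Ppy and Pyy both reached 0.5% (104 and 261). Tspan8 stood at 174 and 152 per 1000000 non-hormone UMIs in the first and at 410 and 309 in the second. Calb1 stood at 37.1 and 53.1 in the first and at 151 and 102 in the second, and Folr1 at 71.0 and 59.6 and at 221 and 138. Ucn3 stood at 215 and 155 in the first and at 98.1 and 99.2 in the second, and Mafa at 206 and 223 and at 96.7 and 158. Cd79a was the reverse of Tspan8, with 261 and 244 against 128 and 181. The cells with both hormones also had the larger PP share, 3.74% and 3.56% in the median cell against 1.59% and 1.75%, so that hormone type and amount cannot be told apart here. Doublet scores were among the highest of the library in 3.94% (WT) and 3.94% (Npc1-/-) of the cells with Ppy under 0.1%. In the cells with both hormones the shares were 8.65% and 6.51%, and the part of doublets in these levels was not tested. The 22 Npc1-/- cells with Ppy and next to no Pyy had 0 among the highest doublet scores, a median of 30866 UMIs and Tspan8 at 113 per 1000000 non-hormone UMIs.

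PP-rich β cells had fewer 2-fold genes against low-PP β cells than against the other endocrine cells. This follows in part from the rule, as insulin had to lead in both β cell classes and another hormone led in the others. Against cells led by Ppy+Pyy 130 genes (2.67% of 4871) were at least 2-fold higher and 135 (2.77%) at least 2-fold lower in both libraries. Against cells led by Sst the counts were 179 (3.29% of 5440) and 268 (4.93%), and against cells led by Gcg 225 (4.39% of 5124) and 251 (4.90%). The comparison with low-PP β cells gave 19 and 16. Tspan8 stood at 789 and 654 CPM and Rbp4 at 2504 and 2611 CPM in the cells led by Ppy+Pyy, above PP-rich β cells for both genes. In that class, where 35.8% and 37.6% of the cells had Sst at 1% or more, the 7 δ cell markers, Rbp4 among them, summed to 3265 and 3376 CPM, and the part of the cells with Sst in these levels was not tested. Cd79a, in contrast, stood at 5.85 and 6.55 CPM there, below the 104 and 101 CPM of PP-rich β cells.

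PP-rich β cells made up a larger part of the insulin-led cells in the Npc1-/- library. They were 446 of 1805 insulin-led cells in WT (24.7%, Clopper-Pearson 22.7 to 26.8) and 797 of 1804 in Npc1-/- (44.2%, 41.9 to 46.5), a ratio of 1.79 (1.59 to 2.01). The rule set aside 150 insulin-led cells of WT and 6 of Npc1-/- for Fos+Hspa1a. Without these, the shares were 26.9% of 1655 and 44.3% of 1798, a ratio of 1.64 (1.46 to 1.85). Among all kept cells they were 9.64% and 18.7%, a ratio of 1.94 (1.72 to 2.18). At 8% Ppy+Pyy or more the shares of the cells under the Fos+Hspa1a limit were 1.27% in WT and 3.67% in Npc1-/-, and from 2 to 4% they were 8.64% and 14.5%. Below 0.1% they were 32.3% and 20.8%. From 0.5 to 0.75% they were 9.12% and 8.51%, and from 0.75 to 1% 6.59% and 6.56%. With all cells thinned to 10000 UMIs the ratio among insulin-led cells was 1.79.

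Cells of high Fos+Hspa1a bear on this count. Its median was 193 UMIs per 1000000 in WT and 61.7 in Npc1-/- PP-rich β cells, against 104 and 26.1 in low-PP β cells, and its part in the difference of shares was not tested. With the limit at 100 per 1000000 the shares among the cells under it were 20.6% of 739 and 38.7% of 1275, a ratio of 1.88. With no limit they were 26.6% of 1805 and 44.4% of 1804, a ratio of 1.67.

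Within PP-rich β cells few genes separated the genotypes. Of 4371 genes compared, 5 (0.114%) were at least 2-fold higher and 10 (0.229%) at least 2-fold lower in Npc1-/-, relative to a median gene at 0.059. In low-PP β cells the counts were 3 (0.0751% of 3997) and 13 (0.325%). The higher genes were Txnip, Rnase4, Ang, Sparc and Arrdc4. The lower ones were Dusp1, Ier2, Fosb, Jun, Junb, Dnajb1, Tnfaip8, Plut, Gm47283 and Ly6h. With Fos+Hspa1a under 100 per 1000000, 3 of the 5 and 6 of the 10 kept both 20 CPM and a 2-fold difference. Dnajb1, Junb and Plut were then under 2-fold, with log2 ratios of -0.79, -0.70 and -0.90. Arrdc4, Sparc and Dusp1 were under 20 CPM, with log2 ratios of 1.18, 3.00 and -1.43. Ly6h, a δ cell marker, was under 20 CPM in both libraries without the cells of 1% Gcg or Sst. Sparc was under 2-fold, with a log2 ratio of 0.46, once the expected rate of doublets was removed.

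Txnip (ENSMUSG00000038393, 3:96557957-96561883), the thioredoxin-interacting protein that glucose induces in β cells, stood at 114 CPM (108 to 120) in WT and 307 CPM (300 to 314) in Npc1-/- PP-rich β cells. The log2 ratio was 1.37 (1.29 to 1.45), and in low-PP β cells, at 42.2 and 114 CPM, it was 1.39 (1.30 to 1.47). Txnip was therefore higher in PP-rich than in low-PP β cells of each library, by 1.28 and 1.27, and higher in Npc1-/- in both classes. Its relative Arrdc4, at 9.86 and 21.7 CPM, had 1.07. On the list of genes that answer to glucose through ChREBP, 5 of 6 were above the median gene and 1 below, with a median of 0.30, against a background of 23.7% above and 23.3% below over all genes (33.6% and 31.7% in low-PP β cells). Mlxipl, which encodes ChREBP, had 0.27 and Fasn, the fatty acid synthase, 0.33.

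Rnase4 stood at 47.8 and 126 CPM and Ang at 17.3 and 42.4 CPM, with log2 ratios of 1.34 and 1.23. Both encode secreted ribonucleases and overlap in the genome, so their reads may be split between them. Sparc, a matrix protein, stood at 14.6 and 32.9 CPM, with a log2 ratio of 1.11 (0.88 to 1.35) against 0.11 (0.01 to 0.21) in low-PP β cells. The endothelial markers moved in the same way, from 3.26 to 32.6 CPM in PP-rich and from 34.0 to 35.5 CPM in low-PP β cells, and their part in the value of Sparc was not tested. Sparc was lower in PP-rich than in low-PP β cells of both libraries, with log2 ratios of -1.66 and -0.66. Also among the 12 highest were Rragd, a Rag GTPase of the lysosomal surface (0.86), Adh1 (0.85), Sgpl1, the sphingosine phosphate lyase (0.79), and Slc12a7, a potassium chloride cotransporter (0.75), besides Soat1 and Insig1.

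Cholesterol genes were higher in Npc1-/- PP-rich β cells. Of 14 genes of synthesis and uptake 9 were above the median gene and 2 below, with a median of 0.37, and in low-PP β cells 12 were above and 1 below, with 0.34. Soat1, which esterifies cholesterol, stood at 18.0 and 35.1 CPM with a log2 ratio of 0.90 (0.69 to 1.13). Insig1, the sterol-controlled anchor of SREBP, stood at 18.1 and 32.6 CPM with 0.79 (0.57 to 1.01). Hmgcs1, an enzyme of the first steps, stood at 26.5 and 45.2 CPM with 0.71. Of these genes 8 of 13 in WT and 7 of 14 in Npc1-/- were below the median gene in PP-rich against low-PP β cells, and none in WT and 1 in Npc1-/- were above.

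Immediate early and heat shock genes were lower throughout. All 13 that could be compared were below the median gene in Npc1-/- PP-rich β cells, 6 of them at least 2-fold, with a median of -0.82, and in low-PP β cells all 13 were below as well, with -0.90. Dusp1, a phosphatase of MAP kinases, stood at 35.9 and 10.7 CPM (log2 ratio -1.81), Jun at 211 and 86.0 CPM (-1.35), and Hspa8, the most abundant, at 784 and 567 CPM (-0.53). Btg2 had -0.82. These genes are known to respond to tissue handling, and the handling of the libraries cannot be told apart from genotype. Genes of ER folding were lower too, with 21 of 30 below and 3 above the median gene and a median of -0.28, against 23 below and 2 above in low-PP β cells. Hspa5, the chaperone BiP, stood at 834 and 617 CPM (-0.49), Pdia6 at 370 and 249 CPM (-0.63) and Sdf2l1 at 209 and 126 CPM (-0.79).

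Secretory genes gave a mixed picture. Of 15 exocytosis genes 11 were above and 2 below, with a median of 0.23, led by Syt4 at 0.52, while Rab3a had -0.24. Of 9 ion channels 5 were above and 2 below, with Trpm5 at -0.85. Chga stood at 5522 and 8422 CPM in WT and Npc1-/-, a log2 ratio of 0.55, and in low-PP β cells of 0.60. Of 38 lysosomal genes 14 were above and 4 below, with a median of 0.06 and the lysosomal protease Tpp1 the highest, at 0.51. Npc2, the soluble partner of the NPC1 protein, had 0.25. Nuclear genes of oxidative phosphorylation had 14 above and 21 below of 75, mitochondrially encoded genes 9 above and 3 below of 12, glycolysis 7 below and none above of 11 with Pgk1 at -0.45, and mitophagy 4 above and 4 below of 16.

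Of the 16 genes of mature function that could be compared between genotypes, 10 were below and 2 above the median gene in Npc1-/- PP-rich β cells, with a median of -0.13, and none of the 16 passed 2-fold. Cox6a2, under 20 CPM in both libraries and so not compared, had a log2 ratio of -3.60 (-4.86 to -2.65). Ucn3 had a log2 ratio of -0.45 (-0.56 to -0.34), Slc2a2 of -0.28 and Nkx6-1 of -0.25, while Mafa had 0.08 (-0.02 to 0.18). Prss53 had -0.93 and Trpm5 -0.85. Of 10 neonatal or immature genes 3 were above and 4 below, with a median of -0.06. Txnip, at 1.37, was the one past 2-fold, and Cd81 had 0.19 and Tspan8 -0.23. In low-PP β cells 8 of 9 were above and 1 below, with a median of 0.26, and Cd81 had 0.59 and Tspan8 0.14. The genotype ratios of these genes in each class rest on the same 2 libraries, and the differences between classes were not tested.

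**Figure D5:**
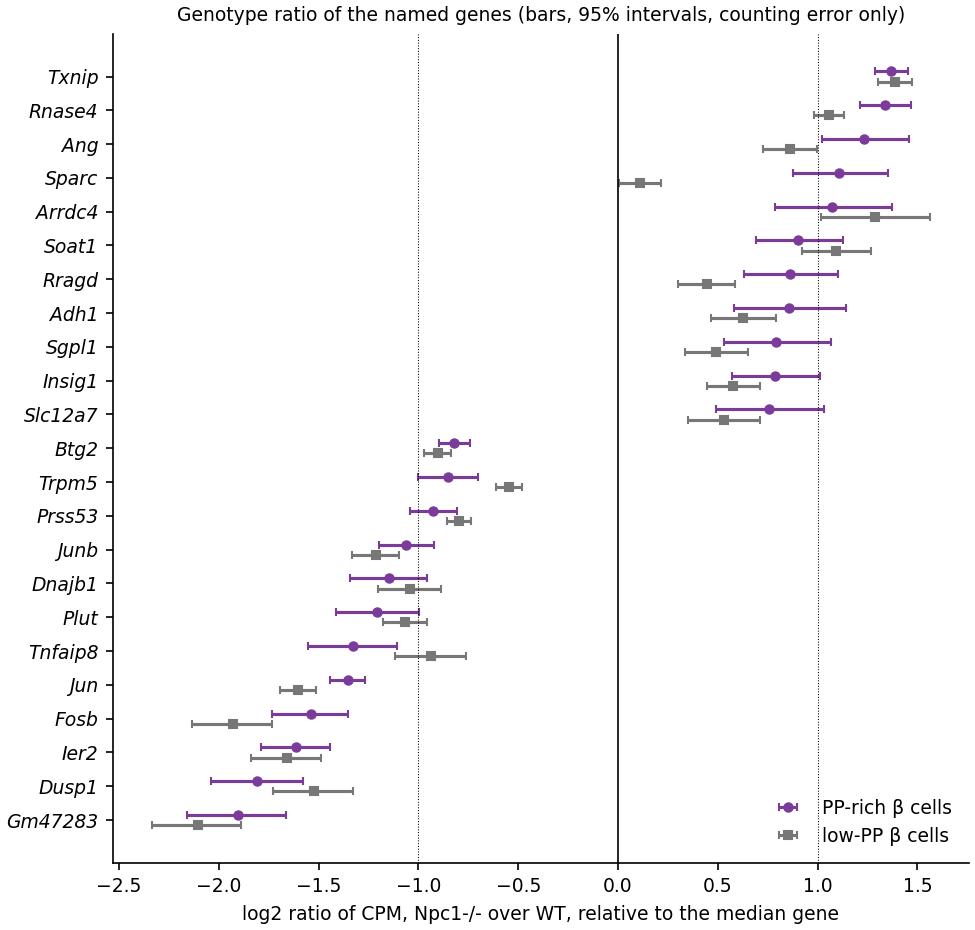
Log2 ratio of CPM in Npc1-/- over WT (x axis), relative to the median gene, for the genes with the highest and lowest ratios (y axis), in PP-rich β cells (purple circles) and low-PP β cells (grey squares) with 95% counting intervals. The classes lie on the same side for all genes shown and close together for most, with Sparc the widest apart (1.11 against 0.11), and dotted lines mark 2-fold.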

How the data were processed

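Filtered matrices of whole-number UMI counts, not normalized, were deposited by the authors, 1 per genotype. Per the submitters' processing notes they used Cell Ranger 3.1.0 and mm10, and the strand setting is not given in the sources used here. Kept barcodes had over 1000 genes, under 50000 UMIs, under 10% mitochondrial and at most 0.1% haemoglobin transcripts. No doublets were removed in the main analysis. Scrublet scores (scanpy 1.11.5) served as an alternative.

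Counts were summed per class and library and divided by all UMIs of the class (CPM). Log2 ratios had 0.5 counts added to each sum and were taken relative to the median gene of those with 20 CPM in either class, without the genes of the rule. Intervals are 95% Poisson, Clopper-Pearson or conditional binomial intervals and cover counting error only. Genes were named by rank: the 12 highest and 12 lowest by the mean ratio of both libraries among genes on the same side of the median gene in both, and the 12 highest and 12 lowest genotype ratios among genes on the same side under every alternative choice of cells, besides Npc1, Xist, the markers of the cells and genes of fixed lists. A few genes that this rule names are not reported here. The members and lists were chosen with earlier results of these data known. On simulated data with 200 changed genes, intervals for PP-rich over low-PP β cells in WT covered the true change in 95.1% of 3626 unchanged genes, and in 97% and 92.9% of genes changed by 1.5 and 0.5 on the log2 scale. For Npc1-/- over WT these were 95.4% of 4075, 91.9% and 92.9%. The simulated sums were drawn from the Poisson model that the intervals assume, without spread between cells, mice or libraries. Coverage near 95% was thus built in, and it checks the calculation alone. Alternatives covered cell filters, doublets, limits of the rule, thinning, scaling and the CPM minimum. Those on marked doublets, cycling cells, Fos+Hspa1a under 100, Ppy+Pyy of 1 to 2% and levels and rho by share without cells of 1% Gcg or Sst were added after seeing the data. Python 3.11.15 and R 4.3.3 with edgeR 4.0.16 (TMM factors only) were used.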

Additional observations from a re-analysis of the deposited data

Results flagged for a closer look

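For 4 genes named here the genotype ratio had opposite signs in PP-rich and low-PP β cells with both counting intervals off 0, and the difference was not tested. The log2 ratio of Npc1-/- over WT of Tspan8 was -0.23 in PP-rich and 0.14 in low-PP β cells. For Rbp4 it was -0.27 and 0.20, for Cd24a -0.27 and 0.96, and for Gpx3 -0.59 and 0.16. In PP-rich β cells the sign of Cd24a turned without the cells of 1% Gcg or Sst (0.80) and with the expected rate of doublets removed (1.06), where Rbp4 had 0.00075. In low-PP β cells Gpx3 ranged from -0.13 to 0.53 over the alternative choices of cells. Outside the cells analysed, 37 barcodes of WT and 123 of Npc1-/- had 50000 or more UMIs and met all other conditions for PP-rich β cells.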

How the results depend on the processing

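No paired analysis was possible because each genotype had 1 library, and no replicate could be left out. The ratio of the shares of insulin-led cells (1.79) was 1.51 with Ppy+Pyy at 0.5% or more and 3.25 with Fos+Hspa1a under 100, which removed more WT cells. The number of genes past 2-fold higher in PP-rich than low-PP β cells (19) was 53 from 5 CPM, 10 from 50 CPM and 42 at 1.5-fold, and that of lower genes (16) was 36, 6 and 51, and 10 with insulin at 40% or more. Higher in Npc1-/- (5) were 26, 2 and 38 genes under those minimums and fold, 3 without cycling cells and 11 at 1 to 2% Ppy+Pyy, and lower (10) were 28, 3 and 39, and 16 with Ppy+Pyy at 2% or more.

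Among the ratios of single genes in the 3 comparisons of PP-rich β cells whose counting interval was off 0, 25 values changed sign where either class held over 3 UMIs, and the cause was not tested. Ratios with an interval across 0 were not counted, nor was Ube2c without the cells that it chose. For Npc1-/- over WT in PP-rich β cells, removing the expected rate of doublets gave log2 ratios of 0.00075 for Rbp4, 0.33 for Clu, 1.06 for Cd24a, 0.087 for Fam159b, 0.00089 for Xist, 1.88 for Hhex, 1.83 for Ly6h and 1.03 for Ghrl. Removing cells with 1% Gcg or Sst gave 0.11 for Clu, 0.80 for Cd24a, 0.35 for Hhex and 0.15 for Ghrl, and removing marked doublets 0.15 for Ghrl. At 1 to 2% Ppy+Pyy, Cd24a had 0.79. Cd24a had 0.083 with Ppy+Pyy at 0.5% or more and 0.0015 as a mean over cells. Gad1 had 0.087 with Ppy+Pyy at 2% or more. With Fos+Hspa1a under 100, Ghrl had 1.87. For PP-rich over low-PP β cells, Sparc had 0.69 in Npc1-/- with Fos+Hspa1a under 100, and Gm47283 -0.013 in WT thinned to 10000 UMIs. Slc30a8 had 0.038 in WT and 0.058 in Npc1-/- with insulin at 40% or more, and 0.0083 in Npc1-/- with Ppy+Pyy at 0.5% or more. Ly6h had -0.34 in Npc1-/- without cells of 1% Gcg or Sst, and Hspa5 -0.011 in Npc1-/- under the stricter cell filter.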
